A study of Mus musculus with 8 samples.

Results

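The genes described here are the nuclear genes for subunits of respiratory complexes II, III, IV and V, together with that for the electron carrier cytochrome c. They were taken by symbol from a table of gene counts for mouse hearts: the succinate dehydrogenase genes Sdha to Sdhd, Cyc1 and Cycs by name, and every further symbol opening with Uqcr, Atp5, or Cox followed by a digit from 4 to 8. This found 48 of the 17191 listed genes, of which 4 belong to complex II, 9 to complex III, 1 is cytochrome c, 17 belong to complex IV and 17 to complex V. The low-count filter left 47 of them among 12998 tested genes, and Cox7b2, listed at a mean of 0.186 FPKM, did not pass it. Subunits that the mitochondrial genome encodes were not analysed here.

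The hearts came from mice with the STAT3 S727A mutation, in which a serine that can be phosphorylated is replaced by alanine, and from WT (wild-type) mice, with 4 libraries in each group. All 8 libraries were whole heart after 4 weeks of transverse aortic constriction (TAC), a narrowing of the aorta that loads the left ventricle with pressure, so no group shows the genotype without TAC. The labels place all libraries in batch 1 and, in the sources used here, give neither age, sex nor the animal behind a library. The p-values below therefore measure the spread between these libraries.

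Complex II oxidises succinate, and complex III takes electrons from reduced ubiquinone and hands them to cytochrome c. Complex IV passes them on to oxygen, and complex V, the ATP synthase, uses the resulting proton gradient to make ATP. The adult heart is dense in mitochondria and draws most of its ATP from this chain, and heart and skeletal muscle use their own isoforms of several small complex IV subunits. Nuclear respiratory genes are known as targets of NRF1, of the ETS factor GABP and of ERR receptors with their PGC-1 coactivators.

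The promoters of 4 genes are shown, those of Uqcrh, Atp5l and Cox7a1 as genes described below and that of Atp5d for its letters of a STAT site. Uqcrh and Atp5l had log2 fold changes (S727A over WT) of 0.24 and 0.27 and Cox7a1 one of -0.26, none past the test, and Atp5d held the most STAT matches. Each is 300 nt from RefSeq on GRCm38.p6, running from 250 nt before to 50 nt after the annotated start, 5′ to 3′. Capitals mark matches on either strand to CCGGAAG (ETS/GABP), GCATGCG (NRF1), AAGGTCA (ERR half-site) or TTCNNNGAA (STAT). The Uqcrh window is chr4:116075021-116075320 on the minus strand, that of Atp5l chr9:44920693-44920992 on the minus strand, that of Cox7a1 chr7:30183921-30184220 on the plus strand and that of Atp5d chr10:80142065-80142364 on the plus strand.
Uqcrh: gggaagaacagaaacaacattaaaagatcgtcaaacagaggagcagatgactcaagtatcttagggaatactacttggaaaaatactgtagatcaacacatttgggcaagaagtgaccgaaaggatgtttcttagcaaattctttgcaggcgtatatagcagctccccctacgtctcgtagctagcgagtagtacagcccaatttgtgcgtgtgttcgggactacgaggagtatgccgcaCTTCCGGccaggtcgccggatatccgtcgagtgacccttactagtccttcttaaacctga
Atp5l: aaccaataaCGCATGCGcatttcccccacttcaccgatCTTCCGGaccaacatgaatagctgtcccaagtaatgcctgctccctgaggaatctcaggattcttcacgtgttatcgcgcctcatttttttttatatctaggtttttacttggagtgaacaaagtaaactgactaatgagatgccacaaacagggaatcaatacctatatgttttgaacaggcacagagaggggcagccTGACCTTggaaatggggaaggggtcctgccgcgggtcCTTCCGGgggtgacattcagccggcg
Cox7a1: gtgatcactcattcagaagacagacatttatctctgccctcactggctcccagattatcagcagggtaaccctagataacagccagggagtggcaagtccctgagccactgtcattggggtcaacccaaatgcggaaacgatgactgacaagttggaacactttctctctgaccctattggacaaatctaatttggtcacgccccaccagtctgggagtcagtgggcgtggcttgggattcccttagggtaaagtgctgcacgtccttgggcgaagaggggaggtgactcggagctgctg
Atp5d: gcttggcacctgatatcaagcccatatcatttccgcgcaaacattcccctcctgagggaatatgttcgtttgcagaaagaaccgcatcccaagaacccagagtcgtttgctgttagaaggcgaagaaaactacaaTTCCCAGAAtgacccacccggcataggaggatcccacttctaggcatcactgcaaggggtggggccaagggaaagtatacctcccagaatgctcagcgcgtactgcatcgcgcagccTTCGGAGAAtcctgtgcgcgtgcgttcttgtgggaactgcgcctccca

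The Uqcrh window held the ETS/GABP letters once, and the Atp5l window held them at both of its ends beside an NRF1 and an ERR match. In Atp5l the NRF1 letters read on both strands, offset by 1 base. The Cox7a1 window held none of the letters searched, and neither did those of Uqcr10, Cox7c and Cox7a2l, whose fold changes were 0.31, 0.21 and 0.24. Windows were found for 37 of the 48 genes, 40 windows in all, and the ETS/GABP letters were in 30.0% of them, against 8.86% of the 32851 mouse promoter windows of the same length. The NRF1 letters were in 22.5% of the 40, against 3.58% of all windows. The ERR half-site was in 12.5% against 4.72%, and AGATGGC (YY1) in 12.5% against 6.40%. STAT letters were in 4 of the 40 windows, those of Atp5d (2 windows), Atp5f1 and Atp5o, against 8.30% of all windows, and those genes differed between genotypes by 0.07, -0.00029 and 0.07 on the log2 scale. A letter match describes the window only.

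Total counts were 11255613 to 13113680 in S727A libraries and 10577636 to 13305143 in WT libraries. The 48 genes took 3.84%, 3.59%, 3.49% and 3.63% of all counts in S727A 1 to 4, against 3.45%, 3.28%, 3.40% and 3.78% in WT 1 to 4, so the groups overlapped in WT 4. All 9 ventricular myocyte markers listed passed the low-count filter. S727A 4 and WT 4 were nearly without Y-linked reads, and airway transcripts summed to 139 and 59.6 CPM in WT 1 and WT 4, against at most 1.76 CPM elsewhere. Stat3, the mutated gene, averaged 164 ± 6.74 CPM in S727A against 201 ± 23.2 CPM in WT (n = 4 each, ± SD), and its level does not check the point mutation. On the chromosome of Stat3 lie also Uqcr10, Uqcrq, Atp5h and Atp5g1, the nearest of which, Atp5g1, is 4.81 Mb away.

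Most of the 47 tested genes were slightly higher in S727A hearts, and none passed the test. The log2 fold change (S727A over WT) was above 0 for 40 of 47 genes, 85.1%, against 49.4% of all tested genes, with a median of 0.13 against -0.0034 over all tested genes. By edgeR's quasi-likelihood test with Benjamini-Hochberg adjustment over all tested genes, 0 of 47 were called higher at adjusted p under 0.05 (0.0462% of all tested genes) and 0 were called lower (0.1%). At an unadjusted p under 0.05, 11 genes, 23.4%, were higher where 8.97% of all tested genes were, and 2 genes, 4.26%, were lower where 8.79% of all were. The 11 were Uqcr10, Uqcrh and Cyc1 of complex III, Cox8a, Cox7a2l, Cox4i1, Cox6c and Cox7c of complex IV, and Atp5l, Atp5mpl and Atp5j2 of complex V, and those lower were Cox7a1 and Sdha. The groups did not overlap, with every S727A library higher, for 9 genes or 19.1%, against 4.07% of all tested genes. No gene of the 47 had every S727A library lower, against 4.36% of all. These 9 genes were Uqcr10 and Uqcrh of complex III, Cox7a2l, Cox6c, Cox7c and Cox6b1 of complex IV, and Atp5j2, Atp5k and Atp5b of complex V. The authors' deposited table gave 1 of the 48, Uqcr10, as higher at q under 0.05, where 1.38% of its genes were, and DESeq2 called the same gene, where it called 2.2% of all tested genes higher. Limma voom called none of the 47. In whole-heart RNA, a different share of myocytes and a different amount of RNA per myocyte cannot be told apart.

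These counts moved with the libraries used and with a correction for transcript length. Without S727A 4 and WT 4, 41 genes were above 0 and 16 were higher at an unadjusted p under 0.05 (11.45% of all tested genes). Every remaining S727A library was higher for 21 genes (13.9% of all). In the other direction, 2 genes were lower at an unadjusted p under 0.05 (12.04% of all). For 2 genes every remaining S727A library was lower, a direction not counted over all genes in this run. Without WT 1 and WT 4, 43 were above 0 and 8 were higher at that p (4.32% of all). Every S727A library was then higher for 23 (9.09% of all). Leaving out 1 library at a time gave 4 higher genes without S727A 1 (6.65% of all tested genes) and 6 without S727A 2 (6.70% of all). It gave 9 without S727A 3 (6.85%), 10 without S727A 4 (11.5%), 7 without WT 2 (5.94%) and 5 without WT 1 (5.62%). Without WT 3 there were 5 (10.7% of all), a share of the 47 no higher than that of all tested genes. There were 18 without WT 4 (9.13% of all), where every S727A library was higher for 18 genes (6.9% of all). With each library's values corrected for a smooth trend in transcript length, 35 genes were above 0 and 2 were higher at an unadjusted p under 0.05, 4.26% of the 47, against 8.46% of all tested genes.

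**Figure D1:**
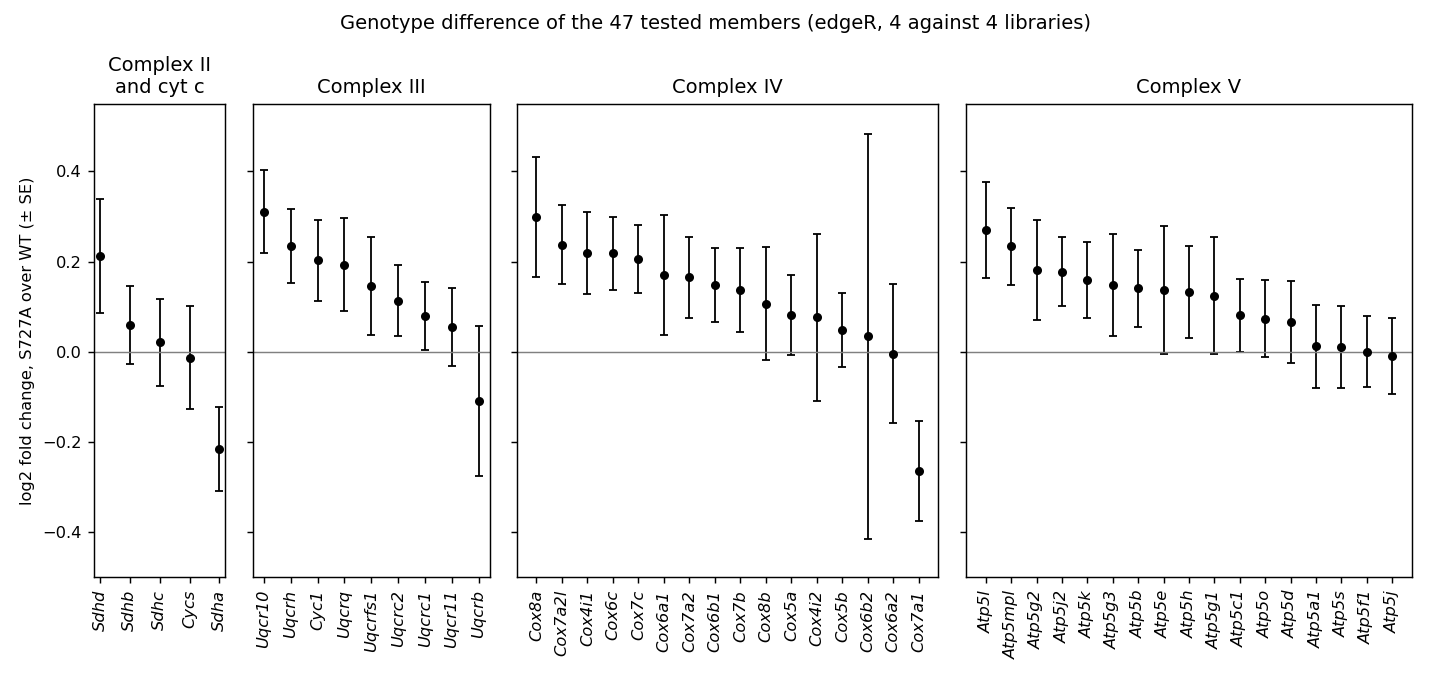
Log2 fold change (S727A over WT) of each of the 47 tested genes, by complex and ordered within it; points are edgeR estimates and bars are ± 1 SE, from 4 libraries in each group. Points lie above 0 for 40 genes, from 0.31 for Uqcr10 down to -0.26 for Cox7a1, and the widest bar is that of the low-count Cox6b2.

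The 4 complex II genes did not move together. Their median log2 fold change was 0.04, with 3 of 4 above 0 and 1 lower at an unadjusted p under 0.05 (8.79% of all tested genes). Sdha encodes the flavoprotein that oxidises succinate (chromosome 13, 74322255 to 74350240, RefSeq GRCm38.p6). It had 1085, 1141, 1150.1 and 1193 CPM (counts scaled to library size with TMM factors) in S727A libraries 1 to 4, against 1485, 1384, 1153 and 1288 CPM in WT libraries 1 to 4. S727A 4 lay above WT 3, and the other S727A libraries lay below every WT library. The log2 fold change was -0.22 ± 0.09 (SE), with an unadjusted p of 0.0389 and an adjusted p of 0.255 by edgeR.

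Sdhb, the iron-sulfur subunit that passes the electrons on, had 944, 910.3, 829 and 875 CPM in S727A libraries, against 936, 882, 782 and 816 CPM in WT libraries. The groups overlapped over most of their range (0.06 ± 0.09 on the log2 scale), although Sdhb was the most abundant complex II transcript per length, at 871 ± 36.3 FPKM in S727A and 852 ± 62.1 FPKM in WT (SD, n = 4 each). The membrane anchors Sdhc and Sdhd bind the haem and the quinone. Sdhc had 379, 373, 339.7 and 400.1 CPM in S727A libraries, against 360.0, 337, 344 and 429 CPM in WT libraries. Sdhd had 447, 399.6, 370.2 and 410.2 CPM in S727A libraries, against 319, 285, 359 and 441 CPM in WT libraries. For Sdhc both extremes were in the WT group, and for Sdhd the WT 4 library lay among the S727A values while the other WT libraries were below them. The log2 fold changes were 0.02 ± 0.10 for Sdhc and 0.21 ± 0.13 for Sdhd, with adjusted p of 0.936 and 0.396 by edgeR.

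In complex III, 8 of 9 genes were above 0, with a median log2 fold change of 0.15. At an unadjusted p under 0.05, 3 of 9 were higher (8.97% of all tested genes). The small subunits Uqcrb, Uqcrq, Uqcrh, Uqcr10 and Uqcr11 had a median of 0.19, and the core and catalytic subunits Uqcrc1, Uqcrc2, Uqcrfs1 and Cyc1 had one of 0.13. With the length offsets described below these medians were 0.11 and 0.10. Uqcr10, a small membrane subunit beside cytochrome c1 (chromosome 11, 4701968 to 4704344), had the smallest p of the 47 genes. Its level was 406, 347, 351 and 341 CPM in S727A libraries, against 266, 273, 311 and 315 CPM in WT libraries. Every S727A library was above every WT library, S727A 1 the farthest. The log2 fold change was 0.31 ± 0.09, with an unadjusted p of 0.00566 and an adjusted p of 0.14 by edgeR. DESeq2 gave an adjusted p of 0.0368, and the authors' deposited table gave a log2 ratio of 0.31 with q = 0.0446.

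Uqcrh encodes the hinge protein that helps cytochrome c1 meet cytochrome c, and its promoter is printed above. It had 339.6, 320.0, 307 and 306 CPM in S727A libraries, against 247, 275, 265 and 294 CPM in WT libraries. The groups were again separate, with WT 4 the nearest WT library (0.24 ± 0.08 on the log2 scale, adjusted p = 0.18 by edgeR). Cyc1, cytochrome c1 itself, had 828, 841, 799 and 787 CPM in S727A libraries, against 659.6, 642, 721 and 806 CPM in WT libraries. Here WT 4 lay above the S727A 3 and S727A 4 values, and the other WT libraries were lower than every S727A library (0.20 ± 0.09, adjusted p = 0.266 by edgeR).

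Uqcrb, which lies near the quinone-binding part of the complex, was the complex III gene of lowest fold change. It had 297, 325, 396 and 300.1 CPM in S727A libraries, against 433, 428, 279 and 282 CPM in WT libraries. WT 1 and WT 2 were above and WT 3 and WT 4 below every S727A library, so the log2 fold change of -0.11 ± 0.17 averages a split WT group. Uqcr11, the most abundant complex III transcript per length at 1052 ± 82.4 FPKM in S727A and 1043 ± 43.1 FPKM in WT (SD, n = 4 each), had 448, 406, 386 and 356 CPM in S727A libraries, against 393, 389, 388 and 367 CPM in WT libraries. Its highest and lowest values were both S727A libraries (0.06 ± 0.09). Its rank per length is by the authors' FPKM. For Uqcrq, count over FPKM implies a length of 1461 nt, against 504 nt in GENCODE M21. Uqcrq, Uqcrfs1, Uqcrc2 and Uqcrc1 lay between 0.08 and 0.19 on the log2 scale, with overlapping groups. The mobile carrier Cycs had 647, 694, 731 and 629 CPM in S727A libraries, against 812, 718, 557 and 639 CPM in WT libraries. WT 1 was the highest and WT 3 the lowest library, and the log2 fold change was -0.013 ± 0.11.

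**Figure D2:**
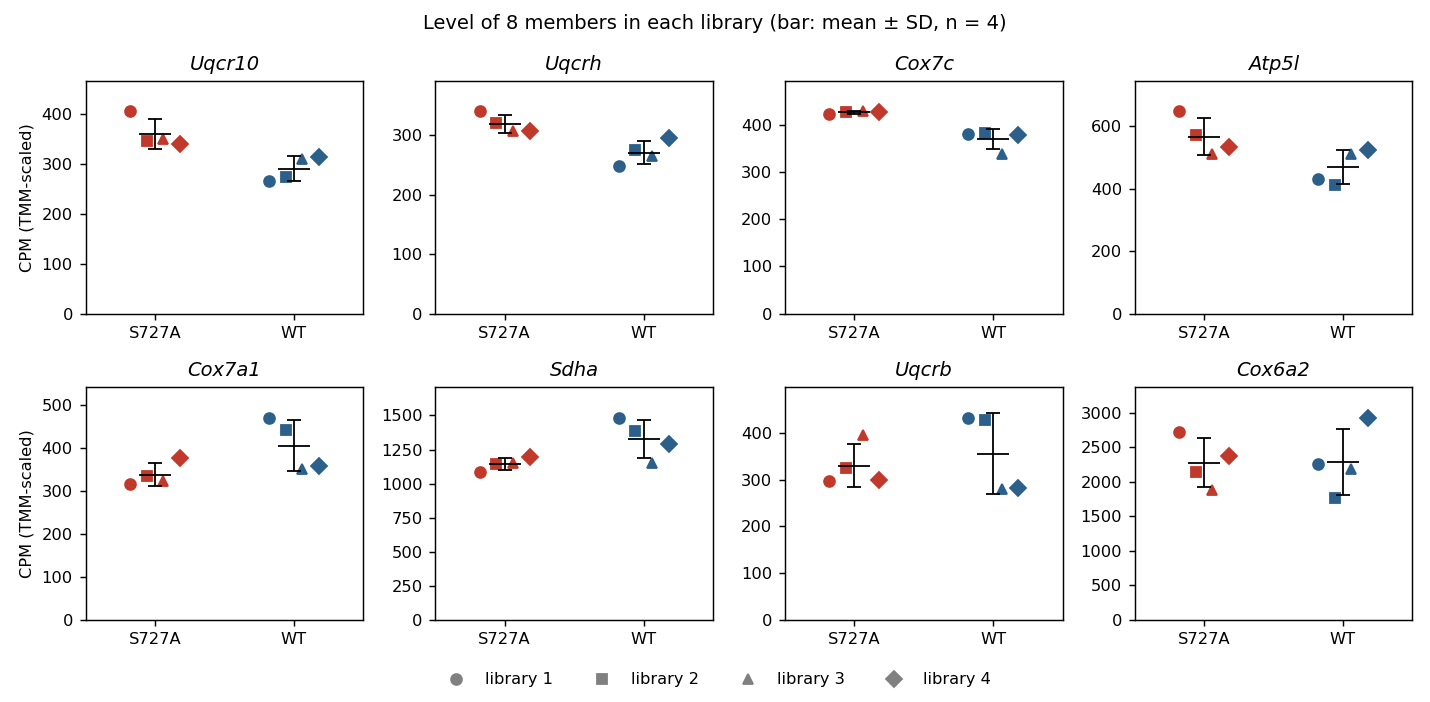
Level of 8 genes in each library, in CPM on axes from 0, with S727A libraries in red and WT libraries in blue, shapes giving the library number, and a line with bars for the mean ± SD of n = 4. S727A and WT do not overlap for Uqcr10, Uqcrh and Cox7c, and WT 1 and WT 2 lie apart from WT 3 and WT 4 for Cox7a1 and Uqcrb.

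In complex IV, 14 of 16 tested genes were above 0, with a median of 0.14. At an unadjusted p under 0.05, 5 were higher (8.97% of all tested genes) and 1 lower (8.79% of all). The 7 genes of subunits that have 1 main form in heart (Cox4i1, Cox5a, Cox5b, Cox6b1, Cox6c, Cox7b and Cox7c) were all above 0, with a median of 0.15. The ubiquitous isoforms Cox6a1, Cox7a2 and Cox8a had a median of 0.17, and the muscle isoforms Cox6a2, Cox7a1 and Cox8b one of -0.0043, with 1 of 3 above 0. Cox7c, a small transmembrane subunit, had 422, 427, 428 and 427 CPM in S727A libraries, against 380.1, 383, 338 and 378 CPM in WT libraries. The S727A libraries were nearly equal and all above the WT ones, and the log2 fold change was 0.21 ± 0.08 (adjusted p = 0.198 by edgeR).

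Cox6c, another small subunit, had 617, 539, 559 and 543 CPM in S727A libraries, against 514, 482, 453 and 492 CPM in WT libraries, with every S727A library higher (0.22 ± 0.08, adjusted p = 0.204 by edgeR). Cox7a2l, the protein that ties complex III to complex IV in supercomplexes, had 331, 279, 272 and 271 CPM in S727A libraries, against 236, 236, 255 and 251 CPM in WT libraries. Its groups did not overlap either, and S727A 1 stood above the other S727A libraries (0.24 ± 0.09, adjusted p = 0.199 by edgeR). Cox5a, Cox5b, Cox6b1 and Cox7b lay between 0.05 and 0.15 on the log2 scale. Cox6b2, a testis form, had few counts and a mean of 1.87 FPKM, with a log2 fold change of 0.03 ± 0.45.

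In the 3 complex IV pairs with a muscle form, that form was the main one in every library, and in the Cox4 pair it was the ubiquitous Cox4i1. Cox6a2 was the most abundant of all 48 transcripts per length, at 3773 ± 543 FPKM in S727A and 3875 ± 803 FPKM in WT (SD, n = 4 each), and it made up 94.9 ± 0.522% of the FPKM of its pair in S727A and 95.4 ± 0.563% in WT. It had 2726, 2140.2, 1888 and 2373 CPM in S727A libraries, against 2260.4, 1774, 2186 and 2934 CPM in WT libraries. The highest and the lowest library were both WT, and the log2 fold change was -0.0043 ± 0.15. Its partner Cox6a1 had 109, 101, 86.1 and 89.0 CPM in S727A libraries, against 70.9, 76.2, 86.4 and 109 CPM in WT libraries, so WT 3 and WT 4 lay within the S727A range (0.17 ± 0.13).

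Cox7a1, the heart and skeletal muscle form of subunit VIIa (chromosome 7, 30184171 to 30186030), was the gene of lowest fold change among the 47. It had 316, 336, 323 and 376 CPM in S727A libraries, against 471, 442, 352 and 358 CPM in WT libraries. WT 1 and WT 2 were well above every S727A library, whereas WT 3 and WT 4 were below S727A 4. The log2 fold change was -0.26 ± 0.11, with an unadjusted p of 0.034 and an adjusted p of 0.245 by edgeR. Cox7a2, its ubiquitous partner, had 303, 282, 258 and 272 CPM in S727A libraries, against 236, 225, 258 and 276 CPM in WT libraries, with WT 4 inside the S727A range (0.17 ± 0.09, adjusted p = 0.36 by edgeR). The FPKM ratio of Cox7a1 over Cox7a2 was 2.35, 2.70, 2.88 and 3.12 in S727A libraries, against 4.67, 4.59, 3.06 and 2.92 in WT libraries. WT 4 lay below S727A 4, and WT 3 between S727A 3 and S727A 4. The mean log2 ratio was lower in S727A by a difference of -0.44 (exact two-sided permutation test, p = 0.114, 0.229 after Benjamini-Hochberg adjustment over 4 pairs).

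Cox8b, the muscle form of subunit VIII, had 689, 559.9, 495 and 549.5 CPM in S727A libraries, against 444, 498, 572 and 616 CPM in WT libraries. Cox8a, the ubiquitous form, had 161, 157, 161 and 151 CPM in S727A libraries, against 102, 110.4, 133 and 166 CPM in WT libraries. Cox8b overlapped throughout (0.11 ± 0.12), and for Cox8a the S727A libraries lay close together while WT 4 exceeded them all (0.30 ± 0.13, unadjusted p = 0.0445, adjusted p = 0.267 by edgeR). Cox8a was the complex IV gene of highest fold change. The Cox8b over Cox8a ratio was 6.82, 5.71, 4.98 and 5.83 in S727A libraries, against 7.11, 7.35, 6.85 and 5.91 in WT libraries, with S727A 1 above WT 4 and the other S727A libraries below every WT library. The difference in mean log2 ratio was -0.23 (exact two-sided permutation test, p = 0.0571, adjusted 0.229).

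Cox4i1, the ubiquitous subunit IV, had 1268, 1151, 1018 and 1096 CPM in S727A libraries, against 989, 897, 974 and 1034 CPM in WT libraries. Cox4i2, a form known from lung, had 8.25, 11.4, 8.29 and 9.01 CPM in S727A libraries, against 8.43, 5.99, 10.03 and 10.4 CPM in WT libraries. Only WT 4 of the WT libraries exceeded an S727A library for Cox4i1, the S727A 3 one (0.22 ± 0.09, adjusted p = 0.245 by edgeR), and Cox4i2 overlapped throughout (0.08 ± 0.19). The WT libraries with airway transcripts, WT 1 and WT 4, had 8.43 and 10.4 CPM of Cox4i2, and a part of these transcripts in its level was not tested. Cox4i2 was 0.822 ± 0.132% of the pair's FPKM in S727A and 0.897 ± 0.164% in WT (SD, n = 4 each). The log2 ratios of Cox4i2 over Cox4i1 and of Cox6a2 over Cox6a1 differed by -0.12 and -0.17 (exact two-sided permutation tests, p = 0.429 and 0.171, adjusted 0.429 and 0.229). With 4 libraries against 4, the smallest p this test can give is 0.0286.

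**Figure D3:**
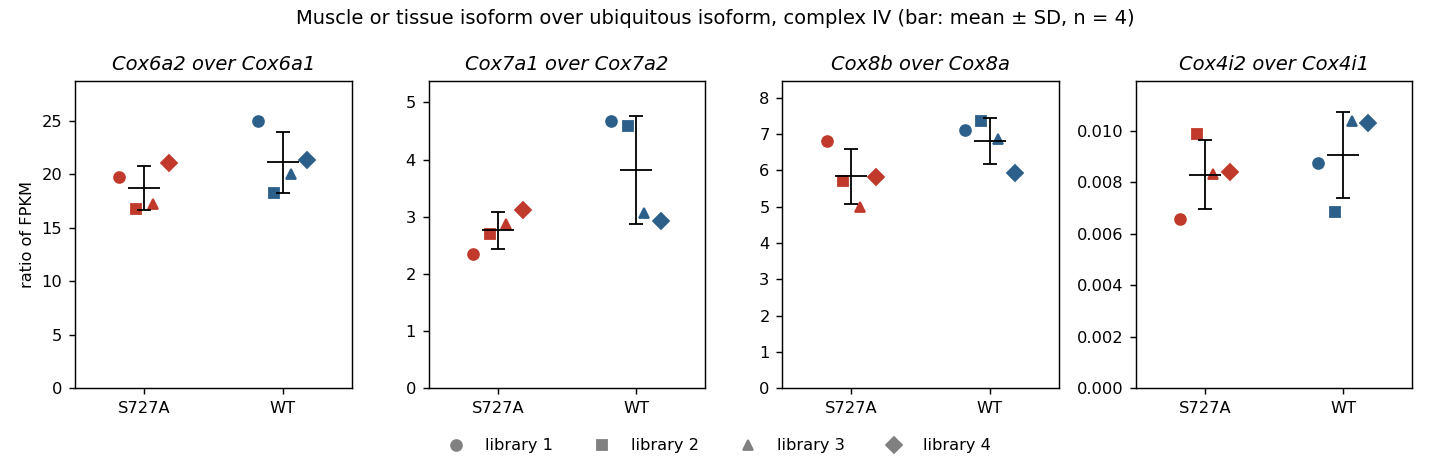
Ratio of FPKM of the muscle or tissue form over the ubiquitous form of 4 complex IV subunits, with S727A libraries in red, WT libraries in blue and a line with bars for the mean ± SD of n = 4; each axis starts at 0. The Cox7a1 ratio is 2.35 to 3.12 in S727A and 2.92 to 4.67 in WT, with WT 1 and WT 2 apart from all other libraries.

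In complex V, 15 of 17 genes were above 0, with a median of 0.13. At an unadjusted p under 0.05, 3 were higher (8.97% of all tested genes). All 3 were small membrane subunits. Subunits e, f and g of the membrane part (Atp5k, Atp5j2 and Atp5l) and the small proteolipid Atp5mpl had a median of 0.21, with 4 of 4 above 0. The c ring genes Atp5g1, Atp5g2 and Atp5g3 had one of 0.15, and the F1 part (Atp5a1, Atp5b, Atp5c1, Atp5d and Atp5e) one of 0.08. The peripheral stalk (Atp5f1, Atp5h, Atp5j and Atp5o) had one of 0.04, with 2 of 4 above 0. With the length offsets the same medians were 0.11, 0.08, 0.03 and -0.0097. Differences between these subassemblies, as between the complexes, are descriptions and were not tested.

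Atp5l, subunit g, which helps hold ATP synthase dimers together and whose promoter is printed above, was the complex V gene of highest fold change (chromosome 9, 44913248 to 44920742). It had 648, 571, 512 and 533 CPM in S727A libraries, against 431, 413, 511 and 522 CPM in WT libraries. The WT 4 value lay between S727A 3 and S727A 4, WT 3 just under S727A 3, and WT 1 and WT 2 well below (0.27 ± 0.11, unadjusted p = 0.0268, adjusted p = 0.223 by edgeR). Atp5mpl had 156, 155, 168 and 136 CPM in S727A libraries, against 131, 129, 139 and 124 CPM in WT libraries. Only the S727A 4 and WT 3 values crossed (0.23 ± 0.08, adjusted p = 0.194 by edgeR).

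Atp5b, the catalytic beta subunit, was the most abundant complex V transcript per length, at 2802 ± 124 FPKM in S727A and 2586 ± 103 FPKM in WT (SD, n = 4 each). It had 5557, 5056, 5099 and 4883 CPM in S727A libraries, against 4839, 4655, 4371 and 4819.6 CPM in WT libraries. Every S727A library was higher, by a margin that was small beside the spread (0.14 ± 0.09, adjusted p = 0.41 by edgeR). Atp5j, coupling factor F6 of the stalk, was lowest in fold change. It had 377, 386, 402 and 381 CPM in S727A libraries, against 415, 422, 350.1 and 368 CPM in WT libraries. WT 1 and WT 2 were above and WT 3 and WT 4 below all S727A libraries, the split also seen for Uqcrb (-0.0092 ± 0.08). The genes of the c ring ran from 0.12 to 0.18, Atp5j2 and Atp5k were at 0.18 and 0.16, and Atp5s, a low-abundance factor at a mean of 12.7 FPKM, was at 0.01.

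Of the 47 genes, a WT library was the lowest for 44 and an S727A library the highest for 32. S727A 1 was the highest library for 24 genes, and WT 2 and WT 3 were the lowest for 17 and 16. WT 1 and WT 2 were together below all 6 other libraries for 16 genes and together above them for 4. WT 4 exceeded the S727A mean for 19 genes. The mean log2 CPM over the 47 genes was 8.84, 8.75, 8.70 and 8.72 in S727A 1 to 4, against 8.65, 8.56, 8.60 and 8.74 in WT 1 to 4, so WT 4 lay within the S727A range. Leaving out WT 4 raised the median fold change of complex III to 0.24, and leaving out WT 2 gave 0.089, against 0.15 with all libraries. The summed ventricular myocyte markers were 88430.2 to 95939.5 CPM in S727A libraries and 82124 to 115796 CPM in WT libraries, where WT 1 and WT 2 were the highest. Myh6 was the largest part of this sum (mean 33605 CPM in S727A against 40404 CPM in WT), and 4 of the 9 markers were above 0. Every S727A library was higher for Myl3 and lower for Ryr2. The 4 macrophage markers, all detected, summed to 114 to 151 CPM in S727A against 153 to 288 CPM in WT libraries. The 5 fibroblast markers summed to 1926 to 2271 CPM in S727A and 1311 to 2116 CPM in WT libraries, and the 4 atrial myocyte markers to 2073 to 3864 CPM in S727A and 528 to 2447 CPM in WT libraries. The atrial sum is mostly Nppa (2610.3 CPM in S727A against 1411 CPM in WT), and Myl7, Sln and Myl4 were lower in S727A, with 1 of 4 above 0. The part of these cell types in the differences was not tested.

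Shorter transcripts of the group tended to have the higher fold change, and so did short transcripts in general. Across the 47 genes, Spearman's rho of log2 fold change with transcript length was -0.33, against -0.16 across 12890 tested genes with a length. These are correlations across genes measured in the same libraries, which are not independent replicates. By complex, rho was -0.72 over the 17 complex V genes, -0.42 over the 9 of complex III and 0.21 over 16 of complex IV, where the short Cox7a1, at 393 nt, is the gene of lowest fold change. With the length implied by count over FPKM, rho was -0.30 over 46 genes, -0.66 in complex V, -0.05 in complex III and 0.18 in complex IV, against -0.24 across 11580 tested genes.

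Set against all genes of like length, the group was at or above the median in most classes. Below 500 nt the median log2 fold change was 0.15 for 11 genes of the group, against 0.11 for all 188 tested genes. From 500 to 700 nt it was 0.17 for 14 of the group against 0.08 for all 398, and from 700 to 1000 nt it was 0.07 for 7 of the group against 0.07 for all 866. The class from 1000 to 2000 nt gave 0.13 for 12 of the group against 0.03 for all 3220. From 2000 to 4000 nt, where Sdha, Cycs and Atp5a1 fall, it was -0.01 in both. From 4000 nt upwards the group has no gene, and all 3010 tested genes had a median of -0.05.

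The length trend also differed between libraries of the same genotype. The slope of each library's deviation from the gene mean, per 10-fold length over all tested genes, was -0.13, -0.08, -0.02 and -0.02 in S727A 1 to 4, against 0.06, 0.13, 0.04 and 0.02 in WT 1 to 4. S727A 1 had the steepest negative slope and was the library highest for 24 genes of the group, and WT 2 had the steepest positive slope and was the lowest for 17. The slope and this rank did not run in parallel throughout, since WT 3 was the lowest for 16 genes and WT 1, with a steeper slope than WT 3, for 7. Slopes were negative in every S727A library and positive in every WT library, so the length trend and genotype cannot be told apart here. Offsets fitted to each library also remove any genotype difference that follows length. With length offsets the group's median fold change was 0.05, and with offsets for length and GC content 0.06. In both cases 35 of 47 were above 0. With offsets for length and GC content complex II had a median of -0.01, complex III 0.11, complex IV 0.06 and complex V 0.05. Uqcr10 was at 0.22 under both offsets, with an adjusted p of 0.216 for length and 0.176 for length and GC content by edgeR, and Cox7a1 was at -0.36 under both. RNA integrity values were not used here, and the part of RNA quality in the trend was not tested.

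**Figure D4:**
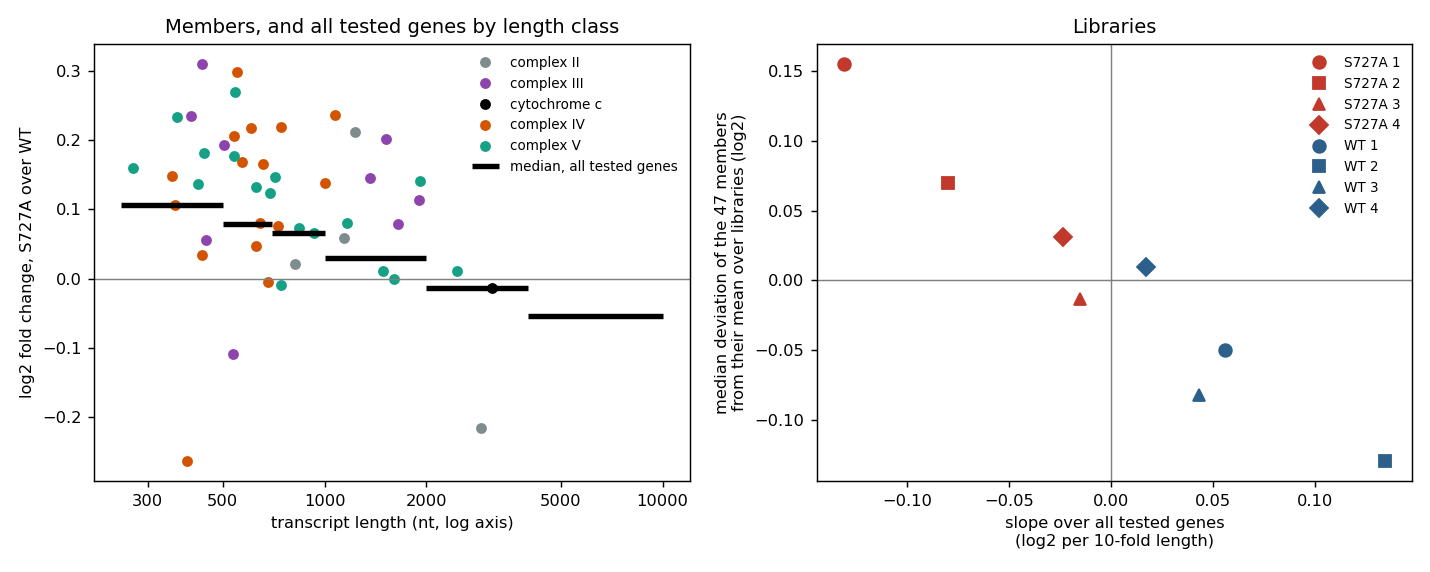
Left: log2 fold change (S727A over WT) of the 47 genes against transcript length on a log axis, coloured by complex, with black bars for the median of all tested genes in each length class. Right: for each library, the slope of its deviation from the gene mean on length over all tested genes (x) and the median deviation of the 47 genes (y). Bars fall from 0.11 below 500 nt to -0.05 above 4000 nt, and all S727A libraries have negative and all WT libraries positive slopes.

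Other mitochondrial genes around the chain were mixed. The edgeR test called 0 genes of the lists below in either direction, as did limma voom, and DESeq2 called Ppargc1b lower and, of the ribosomal protein genes, 6 higher and 1, the muscle form Rpl3l, lower. Of 12985 genes with an adjusted p, DESeq2 called 286 higher (2.2%) and 248 lower. By edgeR, 8.97% of all tested genes were higher and 8.79% lower at an unadjusted p under 0.05. Of 39 tested nuclear subunits of complex I, which feeds electrons from NADH, 28 were above 0 with a median of 0.07, and 4 were higher and 1 lower at an unadjusted p under 0.05. The smallest p values among them were those of the accessory subunits Ndufa11 (433 ± 49.7 CPM in S727A against 351 ± 37.2 CPM in WT) and Ndufb2 (127 ± 8.44 CPM in S727A against 105 ± 12.6 CPM in WT) and of Ndufs3, a core subunit (379 ± 10.2 CPM in S727A against 332 ± 15.4 CPM in WT; n = 4 each, ± SD). With offsets for length and GC content, the complex I median was -0.00058 and 18 of 39 were above 0. Citric acid cycle genes had 2 of 13 above 0 and a median of -0.07, with 0 at an unadjusted p under 0.05 in either direction. The succinyl-CoA synthetase gene Suclg2 had 142 ± 6.2 CPM in S727A against 161 ± 16.2 CPM in WT, Sucla2 of the same enzyme 383 ± 38.3 CPM in S727A against 438 ± 64.3 CPM in WT, and Idh3a, isocitrate dehydrogenase, 507 ± 34.8 CPM in S727A against 556 ± 52.7 CPM in WT (n = 4 each, ± SD).

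Assembly factors of complexes II to V had 28 of 39 above 0 and a median of 0.05, which turned to -0.01 with 18 of 39 above 0 under length offsets, and to -0.03 with 18 of 39 under length and GC offsets. Cox19, a copper-handling factor of complex IV, had 41.7 ± 5.89 CPM in S727A against 30.5 ± 5.42 CPM in WT (log2 fold change 0.45). Coa7 had 15.6 ± 1.25 CPM in S727A against 20.7 ± 3.18 CPM in WT (-0.41), and Cox14 had 84.8 ± 6.15 CPM in S727A against 68.5 ± 16.02 CPM in WT (0.31; n = 4 each, ± SD). Of these, Cox19 was higher and Coa7 lower at an unadjusted p under 0.05. The ATP synthase inhibitor Atpif1 had 193, 132, 177 and 136 CPM in S727A libraries, against 126, 132, 128 and 90.6 CPM in WT libraries. Usmg5, a small membrane subunit outside the prefix, had 266, 269, 266 and 252 CPM in S727A libraries, against 236, 237, 209.8 and 234 CPM in WT libraries. Every S727A library was higher for Usmg5, and the log2 fold changes were 0.42 ± 0.15 for Atpif1 and 0.20 ± 0.08 for Usmg5, with adjusted p of 0.193 and 0.206 by edgeR.

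Among 13 regulators of respiratory genes, 4 were above 0, the median was -0.02 and 2 were lower at an unadjusted p under 0.05 (8.79% of all tested genes). Ppargc1b, the coactivator PGC-1 beta, had 64.5, 49.5, 56.5 and 66.4 CPM in S727A libraries, against 103, 90.2, 70.5 and 86.3 CPM in WT libraries. Every S727A library was lower, opposite in sign to most genes of the chain (log2 fold change -0.56 ± 0.13, unadjusted p = 0.000846, adjusted p = 0.0992 by edgeR). Ppara, a receptor for fatty acids, had 122 ± 13.2 CPM in S727A against 142 ± 10.8 CPM in WT, and Gabpa, the DNA-binding part of GABP, had 56.5 ± 2.2 CPM in S727A against 64.1 ± 6.89 CPM in WT (n = 4 each, ± SD). Gabpa overlaps Atp5j on the other strand by 701 nt in GENCODE M21. Cytosolic ribosomal protein genes, which are short and abundant as well, had 75 of 80 above 0 with a median of 0.16. At an unadjusted p under 0.05, 25 were higher (8.97% of all tested genes) and 1 lower (8.79% of all). With length offsets the ribosomal median was 0.08 and with length and GC offsets 0.09, in both cases with 68 of 80 above 0. The 3 of smallest p were Rps27l (36.3 ± 3.16 CPM in S727A against 25.5 ± 2.24 CPM in WT), Rpl3 (272 ± 51.7 CPM in S727A against 188 ± 21.5 CPM in WT) and Rpl13a (389 ± 51.6 CPM in S727A against 287 ± 34.8 CPM in WT; n = 4 each, ± SD).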

How the data were processed

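The genes and lists were chosen with earlier results of these data known. RNA was extracted with Trizol and made into stranded mRNA libraries for DNBSEQ sequencing, per the labels' protocols. FastQC, HISAT2, Bowtie2 and the build GRCm38.p6 are named, without roles, per the submitters' processing notes, but which tool counted the reads is not stated in the sources used here. A deposited table held an estimated count for each gene and library, with 6.06% to 7.62% of entries in a library not whole (tolerance 1e-06), and FPKM that the authors computed, per the file headers. It also held the authors' log2 ratio of S727A over WT, p-value and q-value for each gene. No source used here says how counts were split between copies or strands, and 10 of the 48 genes overlap a protein-coding gene on the opposite strand in GENCODE M21 (Uqcrb, Uqcrc2, Cox4i1, Cox6a2, Cox6c, Atp5a1, Atp5d, Atp5f1, Atp5j and Atp5o), so values of these and of genes with processed copies are uncertain.

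Estimated counts were rounded and filtered with edgeR filterByExpr defaults (minimum count 10, minimum total 15), then tested in edgeR 4.0.16 (R 4.3.3; TMM, quasi-likelihood F test in legacy mode, robust, two-sided) with genotype as the only term. Adjusted p-values cover all tested genes, and the threshold was 0.05. DESeq2 1.42.0, limma 3.58.1 and scipy 1.17.1 were used for alternatives and exact permutations. Isoform ratios used FPKM. Lengths are those of the median-length basic protein-coding transcript in GENCODE M21, found for 99.2% of genes in the test. Libraries were compared in pairs by chi-square, with 9.13 to 39.0 per degree of freedom, so none repeated another.

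Values in each library are given for the markers Uqcr10, Uqcrh, Cox6a2 and Cox7a1, the isoform pairs, the Sdh genes, Cyc1 and Cycs, the highest and lowest fold change in complexes III to V, up to 6 genes of smallest unadjusted p, and the most abundant gene of each complex. Of further genes, Stat3 and the 3 of smallest p in each list are named, and of the 2 ATP synthase proteins both are, after 1 symbol was dropped from that list because its RefSeq synonym, Aln, is another protein. Whether replicate numbers in the titles pair samples is not stated in the sources used here. Alternatives were RLE scaling, other filters, DESeq2, limma voom, the newer edgeR mode, a replicate block, each library or a doubtful pair left out, length and GC offsets, and FPKM on the log2(value + pseudocount) scale. The gene counts without doubtful libraries were added after seeing the data.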

Additional observations from a re-analysis of the deposited data

Results flagged for a closer look

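In 5 of 102 groups of 4 libraries, 1 library lay apart from the other 3 by Dixon's 95% criterion, the gap to the nearest library over the range of all 4. Chance flags about 1 in 20 groups. Cox7a2l had 331.4 CPM in S727A 1 and 271.0 to 279.1 CPM in the other S727A libraries. Cox7c had 422 CPM in S727A 1, against 427.3 to 428.3 CPM in the others, a flag that rests on how close these were. In the WT group Cox7c had 337.9 CPM in WT 3 and 377.8 to 382.8 CPM in the others. Atp5g2 had 249.4 CPM in S727A 3 and 304.5 to 315.2 CPM in the other S727A libraries. Uqcr11 had 366.5 CPM in WT 4 and 388.3 to 392.8 CPM in the other WT libraries.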

How the results depend on the processing

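No gene of the group was called lower in any alternative run, and DESeq2 called 1 higher, Uqcr10 (0.31), where edgeR called 0. Over all tested genes edgeR called 6 higher and 13 lower. These counts were 11 higher without a filter, 286 and 248 (higher and lower) with DESeq2, 0 and 6 with voom, 0 and 2 with the replicate block, 2 and 8 with log2(FPKM + 1), 3 and 7 with log2(FPKM + 0.1), 107 and 135 without S727A 4 and WT 4, and 0 and 0 without WT 1 and WT 4. With 1 library left out they ran from 0 to 297 higher and from 0 to 320 lower, the highest without S727A 4 and next without WT 3 (164 and 111). No higher gene was called without S727A 1, S727A 3, WT 1 or WT 4. The group's median log2 fold change of 0.13 was 0.084 to 0.16 with 1 library left out and 0.051 with length offsets, the complex V median 0.048 and 0.053 with length and with length and GC offsets. The complex III median of 0.15 was 0.089 to 0.24 with 1 library left out, 0.24 without S727A 4 and WT 4, and 0.23 without WT 1 and WT 4. The cause of these moves was not tested. Same-numbered libraries correlated at -0.0518, -0.102, 0.0646 and 0.0707 in their deviations from the group mean. Such correlations cannot show whether samples were paired, and S727A 4 and WT 4, both nearly without Y-linked reads, share a number. With the replicate block 0 genes of the group were called. Of 525 values of the 25 named genes under alternatives, 524 kept their side of the threshold, and direction was kept where the fold change with all libraries exceeded its SE. Cox6a2, at -0.0043 with all libraries, was at 0.14 without WT 4 and 0.20 without WT 1 and WT 4. Counting error weighs most on Cox7b2, Cox6b2, Atp5s and Cox4i2, the genes of fewest counts.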
